A study of Mus musculus with 15 samples.

Results

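The 9 genes followed here move branched-chain amino acids from the cytosol into mitochondria and through the first irreversible steps of their breakdown. They are the aminotransferases Bcat1 and Bcat2, the subunits Bckdha, Bckdhb, Dbt and Dld of the branched-chain ketoacid dehydrogenase complex, the kinase Bckdk, the phosphatase Ppm1k and the carrier Slc25a44. They were taken by symbol from a table of fragment counts of 39827 genes. All 9 were in the table, and all 9 passed the filter on low counts that left 15948 genes for testing.

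RNA was sequenced from spleen leukemic T cells of mice, in 15 libraries that form 5 groups of 3. In every group, bone marrow progenitors were transduced by retrovirus with ΔE-NOTCH1, a NOTCH1 form that lacks its outer part and signals in the absence of ligand. The cells then grew in C57BL/6J hosts after lethal irradiation. KO3 and KO7 are leukemias from Bcat1 knock-out progenitors, and both are labelled as treated with PBS. WT6 is a leukemia from Bcat1 wild-type progenitors, also labelled PBS. WT0 is a second wild-type leukemia, sequenced after 3 intraperitoneal doses of the BCAT1 inhibitor ERG-245 (30 mg per kg, every 8 h; WT0 ERG-245) and after vehicle (WT0 PBS). Alignment names in the header of the count table contain DMSO for the 3 WT0 PBS libraries, whereas their labels say PBS. The age and sex of the mice, the strain of the donors and the exons removed in the knock-out are not given in the sources used here. Nor do the labels say whether replicate libraries stem from different mice, so the p-values below measure the spread between these libraries, which may be technical. Each genotype is represented by a pair of leukemias, and the hosts keep their own non-leukemic spleen cells.

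Total counts were 17441292 to 28902573 per library, and libraries correlated at r of 0.993 to 0.996 within groups and of 0.94 to 0.965 between them. The biological coefficient of variation, the spread beyond counting error, was 2.18% within groups and 41.9% where leukemias served as replicates of their genotype. All 14 T cell markers examined were detected in every group, at a summed 0.448% to 0.82% of counts. Erythroid, B and plasma cell and macrophage markers were detected too, with group means of 1.15% to 5.82%, 0.158% to 1.44% and 0.135% to 0.387% of counts. Neutrophil, platelet, stromal and dendritic cell markers stayed at or under 0.0562% in every group. In bulk RNA, fewer cells of a type and less RNA per cell cannot be told apart.

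Leucine, isoleucine and valine first lose their amino group to 2-oxoglutarate, which becomes glutamate, and turn into branched-chain ketoacids. Bcat1 does this in the cytosol and Bcat2 in mitochondria, in a reaction that can run in either direction. Slc25a44 carries branched-chain amino acids into mitochondria. There the dehydrogenase complex removes the carboxyl group of the ketoacids for good: Bckdha and Bckdhb form its thiamine-dependent E1 component, Dbt is the E2 core that carries lipoate, and Dld is the E3 component, shared with the pyruvate, 2-oxoglutarate and glycine enzymes. Bckdk phosphorylates E1 and switches the complex off, and Ppm1k removes the phosphate and switches it on. In most adult tissues Bcat2 is the main form, whereas Bcat1 is known from brain and from proliferating and malignant cells, T-cell leukemia among them.

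Promoter sequences are shown for both aminotransferases, since Bcat1 differed most among the groups and Bcat2 is its mitochondrial counterpart. RefSeq promoters of GRCm38.p6 were at hand for 7 of the 9 genes, 10 windows in all, and none were used for Dbt and Slc25a44. Each window spans 250 bases before and 50 after a transcript start. The windows were searched on both strands for TGGGAA, the core recognised by RBPJ, the DNA-binding partner of NOTCH1. They were also searched for the E-box CACGTG bound by Myc, for the amino acid response letters TGATGNAA bound by Atf4, and for the cyclic AMP response core TGACGT. The printed runs are the 250 bases before the start, 5′ to 3′ on the gene's strand, and capitals mark TGGGAA read on the opposite strand. They lie at chr6:145076158-145076407 (minus strand) and chr6:145048813-145049062 (minus strand) for Bcat1, and at chr7:45569903-45570152 (plus strand) and chr7:45571029-45571278 (plus strand) for Bcat2.
Bcat1 promoter 1: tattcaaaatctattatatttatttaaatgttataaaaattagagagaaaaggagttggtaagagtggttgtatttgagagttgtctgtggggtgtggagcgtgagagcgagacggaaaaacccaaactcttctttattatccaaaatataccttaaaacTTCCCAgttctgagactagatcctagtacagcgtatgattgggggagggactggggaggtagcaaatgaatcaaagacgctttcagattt
Bcat1 promoter 2: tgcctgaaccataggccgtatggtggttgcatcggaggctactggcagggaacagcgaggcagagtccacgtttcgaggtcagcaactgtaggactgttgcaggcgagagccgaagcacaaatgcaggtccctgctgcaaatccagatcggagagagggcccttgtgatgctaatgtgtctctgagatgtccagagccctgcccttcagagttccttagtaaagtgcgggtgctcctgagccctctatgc
Bcat2 promoter 1: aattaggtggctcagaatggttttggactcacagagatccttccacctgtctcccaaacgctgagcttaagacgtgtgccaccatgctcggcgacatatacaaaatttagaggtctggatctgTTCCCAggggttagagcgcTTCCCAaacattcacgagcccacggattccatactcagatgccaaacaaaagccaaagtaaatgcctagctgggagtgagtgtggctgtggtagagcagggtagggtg
Bcat2 promoter 2: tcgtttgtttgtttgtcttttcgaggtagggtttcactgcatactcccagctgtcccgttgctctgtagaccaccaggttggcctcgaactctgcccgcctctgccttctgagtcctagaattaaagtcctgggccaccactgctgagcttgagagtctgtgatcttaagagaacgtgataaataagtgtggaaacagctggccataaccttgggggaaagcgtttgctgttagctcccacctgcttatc
The outer Bcat1 promoter held 1 match, beginning 90 bases before the start, and the upstream Bcat2 promoter held 2, beginning 127 and 108 bases before it. The inner promoter of each gene held no match to any of the 4 motifs. TGGGAA is common, with a match in 25.6% of 32851 RefSeq promoter windows of the same length. Of the other members, Dld and Ppm1k each held TGACGT (7.51% of all windows), Dld 27 bases past the start and Ppm1k starting 160 bases before it. No window of a member held CACGTG (7.15% of all windows) or TGATGNAA (3.97%). The matches overlap no other match, and they describe letters only, not binding.

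The genes lie on 5 chromosomes of GRCm38.p6, and the counts cover the merged exons of each whole gene. Bcat1 (gene ID 12035) spans 144993835 to 145076157 on the minus strand of chromosome 6, and Ppm1k (243382) 57506502 to 57535552 on the minus strand of the same chromosome. On chromosome 7 lie Bcat2 (12036; 45568967 to 45589710, plus strand), Bckdha (12039; 25629852 to 25658782, minus strand) and Bckdk (12041; 127904073 to 127909664, plus strand). Dbt (13171; 116513070 to 116549981, plus strand) and Slc25a44 (229517; 88410494 to 88425141, minus strand) lie on chromosome 3. Bckdhb (12040; 83925111 to 84124240, plus strand) lies on chromosome 9 and Dld (13382; 31331562 to 31351471, minus strand) on chromosome 12. No member shares exon bases with a gene on its own strand. Bcat1, Bcat2, Ppm1k and Slc25a44 overlap exons of a gene on the opposite strand, and the counting was stranded.

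Compared per length, the most abundant member over all 15 libraries, 6 of them knock-outs, was the shared E3 subunit, and the least abundant was the targeted gene. Mean levels over the 15 libraries were 53.0 RPKM (counts scaled by the length of the merged exons and by library size) for Dld, 27.0 for Bckdk, 20.4 for Bckdha, 17.8 for Bcat2 and 14.0 for Slc25a44. They were 9.24 RPKM for Dbt, 3.30 for Ppm1k, 3.27 for Bckdhb and 1.66 for Bcat1. Dld stood above 91.0% of all tested genes on this scale and Bcat1 above 30.7%. In WT6 alone Bcat1 was not the lowest, at 3.88 RPKM against 3.43 RPKM for Bckdhb. Within the complex, the E1 alpha subunit Bckdha was thus several times as abundant as its partner Bckdhb, at a ratio of 7.82 ± 0.774 in KO3, 6.40 ± 1.17 in KO7, 4.80 ± 0.276 in WT6, 6.21 ± 0.506 in WT0 ERG-245 and 6.41 ± 0.724 in WT0 PBS (SD, n = 3 each). The length used changes the order: with the longest GENCODE transcript in place of merged exons, Bcat2 moved from the fourth place to the second at 31.4 RPKM, after Dld at 47.4. Bckdk then moved from the second place to the fourth at 22.7 RPKM, just below Bckdha at 22.9 RPKM.

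Across the 5 groups only Bcat1 varied widely. The ratio of its highest to its lowest group mean was 16.88, larger than for 98.7% of the 10993 genes averaging 5 CPM (counts scaled to library size) or more, whose median ratio was 1.503. For the other members this ratio was 1.532 (Bckdk), 1.494 (Bckdha), 1.466 (Ppm1k), 1.418 (Bcat2), 1.391 (Slc25a44), 1.261 (Bckdhb), 1.259 (Dbt) and 1.184 (Dld). Bckdk alone of these 8 lay above the median, and the ratio of Dld exceeded only 7.05% of genes.

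**Figure D1:**
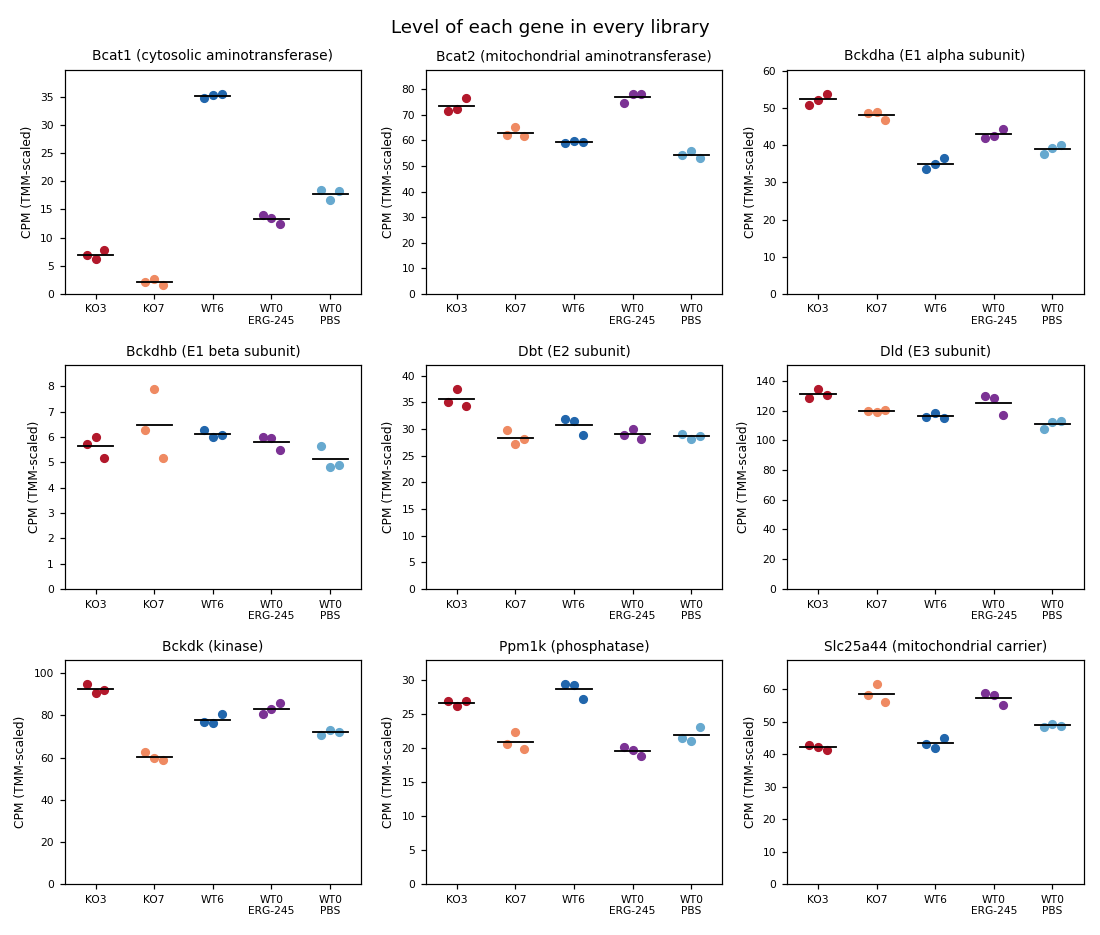
Level of each of the 9 genes in CPM (counts scaled to library size, y axes from 0) in every library of KO3, KO7, WT6, WT0 ERG-245 and WT0 PBS; points are libraries and lines group means. Bcat1 spans 1.48 to 35.6 CPM without overlap between groups, whereas the other genes stay within narrow ranges and in part overlap.

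Bcat1 RNA was low but present in both knock-outs and differed among all 5 groups. It stood at 6.85, 6.17 and 7.85 CPM in KO3 and at 2.11, 2.67 and 1.48 CPM in KO7, against 34.8, 35.3 and 35.6 CPM in WT6, 14.0, 13.5 and 12.5 CPM in WT0 ERG-245 and 18.4, 16.7 and 18.3 CPM in WT0 PBS. No group overlapped another. The raw counts behind the KO7 values were 42, 47 and 26, and those behind the KO3 values 145, 132 and 170. Because the removed exons are not named, counts over the whole gene check the genotype only in part, and RNA of host cells was not told apart from that of leukemic cells.

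Bcat1 fell in each knock-out against each wild-type leukemia. Differences were tested with edgeR in a single fit to all 15 libraries and passed where the p adjusted over all genes was under 0.05. The log2 fold change was -2.34 (SE 0.078, edgeR adjusted p = 6e-41) for KO3 against WT6 and -1.35 (SE 0.089, edgeR adjusted p = 3.16e-23) for KO3 against WT0 PBS. For KO7 it was -4.07 (SE 0.10, edgeR adjusted p = 8.9e-49) against WT6 and -3.09 (SE 0.12, edgeR adjusted p = 1.67e-36) against WT0 PBS. With a library left out, these KO7 values ranged over -4.27 to -3.89 and -3.29 to -2.9. Each SE was back-calculated from the test, and for the low KO7 counts it may be too small. The level in KO3 was 3.33 times that in KO7. The wild-type leukemias themselves differed, with 1.98 times as much Bcat1 in WT6 as in WT0 PBS (log2 0.99, SE 0.065, edgeR adjusted p = 2.91e-23). In WT0, Bcat1 fell with ERG-245 to 74.8% of its level with PBS (log2 -0.42, SE 0.08, edgeR adjusted p = 4.34e-06). The same comparison held different T cell receptor segments: Trbv16 held 49.9 ± 1.19% of TRBV counts in WT0 ERG-245 and 4.92 ± 0.146% in WT0 PBS, and Trbv17 held 0.93 ± 0.19% and 39.7 ± 0.855% (SD, n = 3 each). Inhibitor and leukemic clone cannot be told apart in WT0, here and for every other gene below.

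The mitochondrial aminotransferase Bcat2 was higher in KO3, KO7 and WT0 ERG-245 than in WT0 PBS, and to a smaller extent in wild-type WT6 too (log2 0.12, SE 0.04, edgeR adjusted p = 0.00414). Its levels were 71.6, 72.2 and 76.4 CPM in KO3 and 62.2, 65.2 and 61.6 CPM in KO7, against 58.8, 59.9 and 59.2 CPM in WT6. In WT0 they were 74.8, 78.1 and 78.3 CPM with ERG-245 and 54.1, 55.7 and 53.2 CPM with PBS. From low to high the groups ran WT0 PBS, WT6, KO7, KO3 and WT0 ERG-245, and only KO3 and WT0 ERG-245 overlapped. The change was largest with ERG-245 (1.42-fold; log2 0.50, SE 0.04, edgeR adjusted p = 5.21e-19). KO3 exceeded WT0 PBS by log2 0.43 (SE 0.039, edgeR adjusted p = 3.14e-16) and WT6 by 0.31 (SE 0.038, edgeR adjusted p = 3.77e-11). KO7 exceeded WT0 PBS by log2 0.21 (SE 0.041, edgeR adjusted p = 6.07e-06). Against WT6 it was only 0.088 higher (SE 0.04, edgeR adjusted p = 0.0439), a call lost with DESeq2 (adjusted p = 0.0758), without the filter on low counts (edgeR adjusted p = 0.0667) and without any of WT6 1, WT6 2, WT6 3, KO7 1 or KO7 2 (edgeR adjusted p of 0.0519 to 0.213).

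Added per length, the aminotransferase transcripts varied less than Bcat1 alone. This follows from their levels, since Bcat2 made up most of the sum in every group and itself varied little. Their sum was 20.8 ± 0.792 RPKM in KO3, 17.4 ± 0.583 in KO7, 20.02 ± 0.173 in WT6, 22.4 ± 0.462 in WT0 ERG-245 and 16.8 ± 0.255 in WT0 PBS (SD, n = 3 each). The lowest mean sum was that of WT0 PBS, below the means of both knock-outs. Its libraries, at 16.49 to 17 RPKM, overlapped those of KO7, at 16.93 to 18.04 RPKM, and the sums were not tested. Bcat1 made up 3.68 ± 0.326% of the sum in KO3, 1.31 ± 0.336% in KO7, 19.4 ± 0.166% in WT6, 6.54 ± 0.488% in WT0 ERG-245 and 11.7 ± 0.775% in WT0 PBS. With the length of the longest transcripts, the sums kept the same order of groups and the share of Bcat1 was 0.868% to 13.6%. RNA levels do not give enzyme amounts, and ERG-245 acts on the protein.

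**Figure D2:**
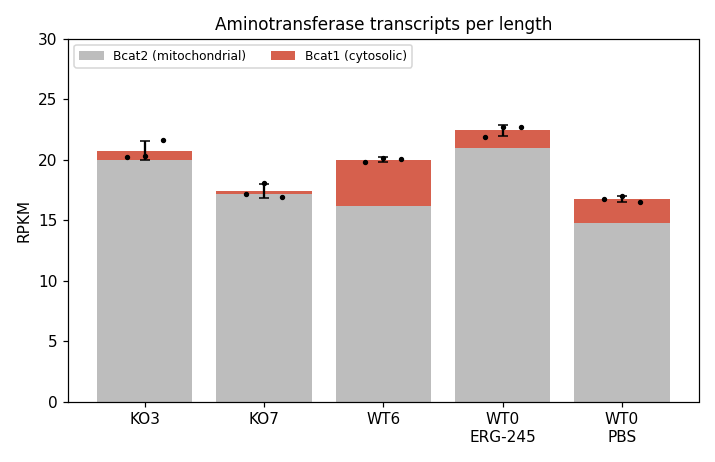
Bcat1 (red) and Bcat2 (grey) in RPKM, stacked from 0, as group means of 3 libraries, with the sum of each library as a point and the SD of the sum as a bar. Bcat2 makes up most of every bar, the Bcat1 part is tallest in WT6 and smallest in KO7, and the sum is highest in WT0 ERG-245.

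Of the dehydrogenase subunits, the E1 alpha gene Bckdha moved most. It stood at 51.0, 52.3 and 54.0 CPM in KO3 and at 48.7, 49.1 and 46.7 CPM in KO7, against 33.7, 35.1 and 36.5 CPM in WT6, 42.1, 42.5 and 44.6 CPM in WT0 ERG-245 and 37.6, 39.3 and 40.1 CPM in WT0 PBS. No pair of groups overlapped, and both knock-outs lay above the other 3 groups. Against WT6, Bckdha rose by log2 0.58 in KO3 (SE 0.045, edgeR adjusted p = 2.76e-19) and by 0.46 in KO7 (SE 0.047, edgeR adjusted p = 3.5e-14). Against WT0 PBS it rose by log2 0.43 in KO3 (edgeR adjusted p = 3.29e-13) and by 0.31 in KO7 (edgeR adjusted p = 4.27e-08). WT6 was itself below WT0 PBS (log2 -0.15, edgeR adjusted p = 0.00307). With ERG-245 the rise was log2 0.14 (SE 0.048, edgeR adjusted p = 0.00716). That call was lost without the filter on low counts (edgeR adjusted p = 0.053), without WT0 PBS 1 (0.057) and without WT0 ERG-245 3 (0.0519).

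The E1 beta gene Bckdhb, the partner of Bckdha in E1, showed no comparable change at its low depth. It had 85 to 188 counts per library, or 5.17 to 5.98 CPM in KO3, 5.17 to 7.89 CPM in KO7, 5.98 to 6.25 CPM in WT6, 5.47 to 5.99 CPM in WT0 ERG-245 and 4.80 to 5.64 CPM in WT0 PBS. The KO7 libraries spread most, at 6.28, 7.89 and 5.17 CPM, and covered the range of nearly all others. Against WT6 the log2 fold change was -0.12 in KO3 (95% interval -0.36 to 0.11) and 0.077 in KO7 (-0.16 to 0.31). These intervals lie below the log2 fold change of Bckdha in the same comparisons. The gene passed in 1 comparison, KO7 against WT0 PBS (log2 0.33, SE 0.13, edgeR adjusted p = 0.0184), and not with DESeq2 (adjusted p = 0.062), without KO7 2 (edgeR adjusted p = 0.297), without WT0 PBS 2 (0.0782) or without WT0 PBS 3 (0.0512).

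Dbt, which carries the lipoyl arm of E2, was higher in KO3 than in the other groups. Its levels were 35.1, 37.6 and 34.4 CPM in KO3 and 29.8, 27.2 and 28.1 CPM in KO7, against 31.8, 31.5 and 28.8 CPM in WT6, 28.9, 30.0 and 28.2 CPM in WT0 ERG-245 and 29.1, 28.2 and 28.6 CPM in WT0 PBS. KO3 overlapped no group, and the other 4 overlapped each other. Dbt rose in KO3 by log2 0.21 against WT6 (SE 0.052, edgeR adjusted p = 0.00028), by 0.32 against WT0 PBS (edgeR adjusted p = 4.45e-07) and by 0.33 against KO7 (edgeR adjusted p = 2.78e-07). In KO7 the log2 difference was -0.12 from WT6 (95% interval -0.23 to -0.0062, edgeR adjusted p = 0.0559, and under the threshold at 0.0166 without WT6 3 and 0.0284 without KO7 1) and -0.012 from WT0 PBS (-0.13 to 0.10). With ERG-245 it was 0.02 (-0.095 to 0.13).

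Dld, the E3 shared by several complexes, had the smallest ratio of highest to lowest group mean. It stood at 129 to 135 CPM in KO3, 119 to 121 CPM in KO7, 115 to 118 CPM in WT6, 117 to 130 CPM in WT0 ERG-245 and 108 to 113 CPM in WT0 PBS. It rose in KO3 by log2 0.18 against WT6 and 0.24 against WT0 PBS, and in KO7 by 0.11 against WT0 PBS (edgeR adjusted p of 3.48e-10 to 0.00221). With ERG-245 it rose by log2 0.18 (SE 0.033, edgeR adjusted p = 2.82e-06). KO7 lay 0.043 above WT6 (95% interval -0.021 to 0.11, edgeR adjusted p = 0.229), and passed only in a fit to these 6 libraries alone (adjusted p = 0.0498).

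The kinase Bckdk moved in opposite directions in the knock-outs. It stood at 94.9, 90.6 and 92.2 CPM in KO3 and at 62.8, 59.7 and 58.7 CPM in KO7, against 77.1, 76.3 and 80.7 CPM in WT6, 80.9, 82.9 and 85.8 CPM in WT0 ERG-245 and 70.6, 73.1 and 72.4 CPM in WT0 PBS. KO3 was above and KO7 below every library of the other groups. Against WT6, Bckdk rose by log2 0.25 in KO3 (SE 0.035, edgeR adjusted p = 3.13e-09) and in KO7 it fell by 0.37 (SE 0.038, edgeR adjusted p = 7.38e-14). Against WT0 PBS the values were 0.36 in KO3 (edgeR adjusted p = 1.75e-14) and -0.25 in KO7 (edgeR adjusted p = 5.05e-08). The difference between the knock-outs was log2 0.61 (SE 0.038, edgeR adjusted p = 1.11e-24), a 1.53-fold higher level in KO3. With ERG-245, Bckdk rose by log2 0.21 (SE 0.037, edgeR adjusted p = 1.2e-06).

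The phosphatase Ppm1k, which acts against Bckdk, was highest in WT6 and lowest with ERG-245. It stood at 27.0, 26.1 and 26.9 CPM in KO3 and at 20.6, 22.3 and 19.8 CPM in KO7, against 29.4, 29.2 and 27.2 CPM in WT6, 20.1, 19.6 and 18.8 CPM in WT0 ERG-245 and 21.5, 21.0 and 23.1 CPM in WT0 PBS. KO7 overlapped both WT0 groups, which did not overlap each other, and KO3 and WT6 lay above all 3. Ppm1k fell in KO7 against WT6 (log2 -0.45, SE 0.061, edgeR adjusted p = 4.72e-10) and rose in KO3 against WT0 PBS (log2 0.29, SE 0.061, edgeR adjusted p = 2.35e-05). The remaining knock-out contrasts did not pass, with log2 -0.11 for KO3 against WT6 (95% interval -0.22 to 0.0070) and -0.058 for KO7 against WT0 PBS (-0.19 to 0.073). WT6 exceeded WT0 PBS by log2 0.40 (edgeR adjusted p = 8.48e-09). Erythroid markers were low where Ppm1k was high: they took 1.13% to 1.36% of counts in KO3 and WT6 and 3.95% to 5.94% in KO7 and both WT0 groups, and their part in the Ppm1k differences was not tested. With ERG-245 Ppm1k fell by 0.16 on the log2 scale (SE 0.066, edgeR adjusted p = 0.0296). That call was lost with DESeq2 (adjusted p = 0.0992) and without WT0 PBS 3, WT0 ERG-245 2 or WT0 ERG-245 3 (edgeR adjusted p = 0.132, 0.0514 and 0.123).

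Set against its substrate subunit, the kinase transcript was lowest in KO7. Bckdk over Bckdha per length was 1.32 ± 0.0615 in KO3, 0.936 ± 0.028 in KO7, 1.66 ± 0.044 in WT6, 1.44 ± 0.0122 in WT0 ERG-245 and 1.38 ± 0.0278 in WT0 PBS (SD, n = 3 each). Whether the ratio lay above 1 depended on the lengths used: with the longest transcripts it was 0.985 in KO3, 0.70 in KO7, 1.24 in WT6, 1.08 in WT0 ERG-245 and 1.03 in WT0 PBS, with KO7 again lowest. Bckdk over Ppm1k was 8.67 ± 0.111 in KO3, 7.22 ± 0.484 in KO7, 6.82 ± 0.499 in WT6, 10.7 ± 0.701 in WT0 ERG-245 and 8.24 ± 0.439 in WT0 PBS, and 4.46 (WT6) to 6.97 (WT0 ERG-245) with the longest transcripts. These ratios were not tested, and they are of transcripts, not of enzyme activity or of E1 phosphorylation.

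The carrier Slc25a44 was higher in KO7 and with ERG-245 than in the remaining groups. It stood at 42.8, 42.3 and 41.3 CPM in KO3 and at 58.3, 61.6 and 56.0 CPM in KO7, against 43.3, 42.1 and 44.9 CPM in WT6, 58.9, 58.2 and 55.3 CPM in WT0 ERG-245 and 48.5, 49.4 and 48.7 CPM in WT0 PBS. KO3 overlapped WT6, KO7 overlapped WT0 ERG-245, and WT0 PBS lay apart between these pairs. Slc25a44 rose in KO7 by log2 0.43 against WT6 (SE 0.044, edgeR adjusted p = 1.62e-14) and by 0.26 against WT0 PBS (edgeR adjusted p = 2.64e-07). In KO3 it fell against WT0 PBS (log2 -0.21, edgeR adjusted p = 2.94e-05) and differed from WT6 by -0.042 (95% interval -0.13 to 0.047). With ERG-245 it rose by log2 0.23 (SE 0.044, edgeR adjusted p = 3.46e-06).

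Erythroid marker RNA followed the same order of groups as Slc25a44. The 13 erythroid markers in the table took 1.13% to 1.17% of counts in KO3, 5.62% to 5.94% in KO7, 1.19% to 1.36% in WT6, 4.52% to 4.89% in WT0 ERG-245 and 3.95% to 4.16% in WT0 PBS, with no marker at 0 in any group. All 13 were called higher in KO7 than in WT6 (median log2 2.34). With ERG-245, 9 were called higher and 1 lower (median log2 0.21). The part of erythroid RNA in the Slc25a44 result was not tested. Leaving the markers of other cells and all immunoglobulin genes out before scaling left the Slc25a44 calls in place, which tests the scaling and not RNA of such cells within Slc25a44 itself. Macrophage markers were also highest in KO7, at 0.387% of counts against 0.223% in WT6.

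**Figure D3:**
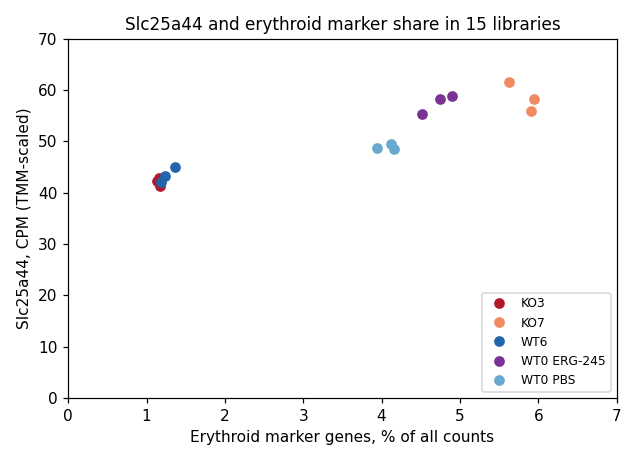
Slc25a44 in CPM against the summed share of 13 erythroid markers in percent of counts, with each of the 15 libraries as a point. The libraries fall into group clusters: KO3 and WT6 at low share and 41.3 to 44.9 CPM, WT0 PBS near 49 CPM, and KO7 and WT0 ERG-245 at 55.3 to 61.6 CPM.

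Counted over the 9 genes, the comparisons with WT6 differed between the knock-outs. In KO3 against WT6, 5 rose (Bcat2, Bckdha, Dbt, Dld, Bckdk) and Bcat1 fell. Of all genes tested 59.7% passed, 27.7% higher and 32% lower, and 11.5% passed with at least a 2-fold change. In KO7 against WT6, 3 rose (Bcat2, Bckdha, Slc25a44) and 3 fell (Bcat1, Bckdk, Ppm1k), where 68.9% of all genes passed, 32.2% higher and 36.7% lower, and 17.5% by at least 2-fold. Both comparisons share the WT6 libraries. The share of members that passed was thus near that of all genes in both, and no member other than Bcat1 reached 2-fold.

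Against WT0 PBS, 6 members rose in KO3 (Bcat2, Bckdha, Dbt, Dld, Bckdk, Ppm1k) and 2 fell (Bcat1, Slc25a44). Of all genes 66.6% passed, 34.1% higher and 32.4% lower, and 12.3% by at least 2-fold. In KO7 against WT0 PBS 5 rose (Bcat2, Bckdha, Bckdhb, Dld, Slc25a44) and 2 fell (Bcat1, Bckdk), against 69.4% of all genes, 34.5% higher and 34.9% lower, with 16.2% at least 2-fold. With ERG-245, 5 rose (Bcat2, Bckdha, Dld, Bckdk, Slc25a44) and 2 fell (Bcat1, Ppm1k), and none reached 2-fold. There 65.8% of all genes passed, 33% higher and 32.8% lower, and 11.7% by at least 2-fold. These comparisons share the WT0 PBS libraries. The median size of the members' log2 fold change without regard to sign was 0.32 in KO3, 0.25 in KO7 and 0.18 with ERG-245, against 0.32, 0.35 and 0.31 for all genes.

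**Figure D4:**
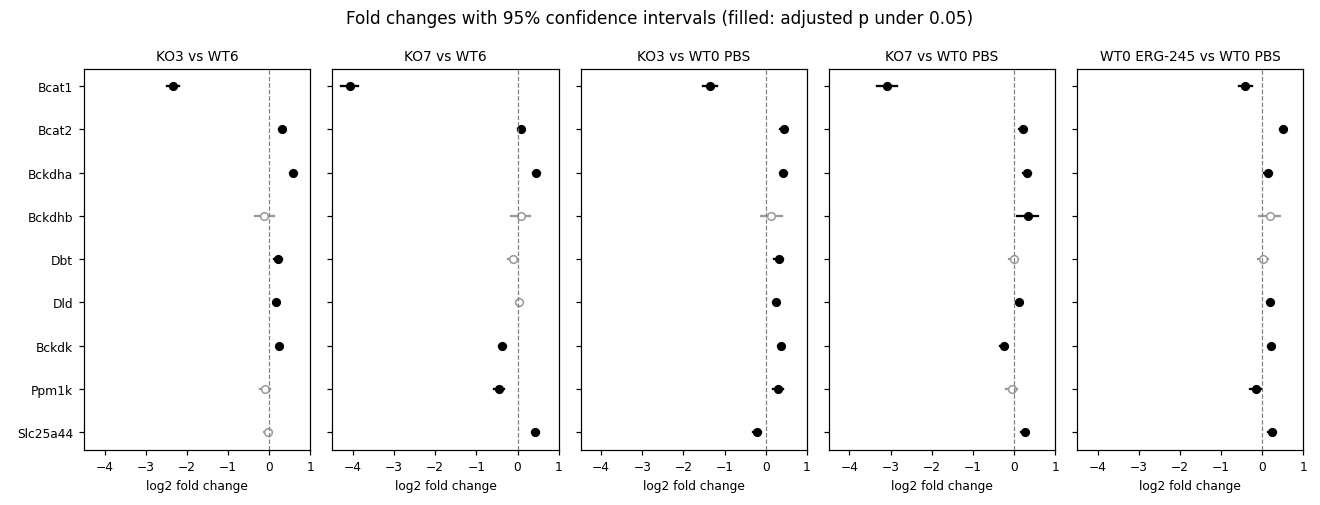
Log2 fold change of each gene (x axes) in 5 comparisons, with filled points where the adjusted p was under 0.05. Bars are 95% confidence intervals, back-calculated from the F statistics of the edgeR fit to 15 libraries. Bcat1 lies left of 0 in every panel (-4.07 to -0.42), Bckdha right of 0 in every panel, and Bckdk on opposite sides for KO3 and KO7.

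Leukemias of the same genotype differed from each other as well. Between the knock-outs (KO3 against KO7), 7 members were higher (Bcat1, Bcat2, Bckdha, Dbt, Dld, Bckdk, Ppm1k) and 1 lower (Slc25a44). Of all genes 70.7% passed there, 36.1% higher and 34.6% lower, and 19.6% by at least 2-fold. Between the wild types (WT6 against WT0 PBS), 5 were higher (Bcat1, Bcat2, Dld, Bckdk, Ppm1k) and 2 lower (Bckdha, Slc25a44), against 72.5% of all genes, 36.8% higher and 35.6% lower, with 18.9% at least 2-fold. The Dld call between the wild types (log2 0.069, edgeR adjusted p = 0.0491) was lost with DESeq2, RLE scaling, no filter or a fit to the 6 libraries alone (adjusted p of 0.0544 to 0.114), and without WT0 PBS 1, WT6 1 or WT6 2 (0.0566 to 0.251). The Bckdha call between the knock-outs (log2 0.12, edgeR adjusted p = 0.0144) was lost with DESeq2 (adjusted p = 0.0617) and without KO7 3 or KO3 3 (edgeR adjusted p = 0.0692 and 0.0666). Bckdhb, uncalled in both comparisons, passed between the knock-outs without KO7 3 (log2 -0.33, edgeR adjusted p = 0.0253) and between the wild types without WT0 PBS 1 (0.33, 0.0304). Dbt passed between the wild types without WT6 3 (0.15, edgeR adjusted p = 0.0201).

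Bcat2, Bckdha and Dld had both knock-out means above both wild-type PBS means, as 9.12% of all tested genes did, and Bcat1 had both below, as 10.8% did. Bcat1 is the gene targeted in both knock-outs, so its side was largely set by the design. The total of 4 of 9 members, against 19.9% of all genes, includes it. The other 5 showed neither pattern.

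With the leukemia as the unit of replication, no member passed. Counts were summed over the 3 libraries of KO3, KO7, WT6 and WT0 PBS and the knock-outs were compared with the wild types. The fit had 2 residual degrees of freedom. The test and its intervals used 5.03, because edgeR borrows information on spread across genes. Bcat1 was 7.10 and 2.13 CPM in KO3 and KO7, against 35.4 and 17.9 CPM in WT6 and WT0 PBS, which gave a log2 fold change of -2.53 (SE 0.71, 95% interval -4.35 to -0.71, edgeR adjusted p = 1, DESeq2 adjusted p = 0.0883). Bckdha was 53.5 and 49.1 CPM in the knock-outs, against 35.2 and 39.3 CPM in the wild types (log2 0.46, 95% interval -0.047 to 0.97). The intervals of the remaining members all included 0, with log2 0.28 for Bcat2 (-0.20 to 0.76), 0.16 for Dld (-0.28 to 0.61) and 0.047 for Bckdk (-0.60 to 0.70). Of all 17226 genes, 0 passed with edgeR (0%), 226 had an unadjusted p under 0.05, and DESeq2 called 46. Genotype and leukemia cannot be told apart for these genes with the leukemias at hand.

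The enzymes that follow the complex, 21 genes from isovaleryl-CoA to acetyl-CoA and propionyl-CoA breakdown, were mostly higher in KO3. Of the 19 tested, 15 rose and 1 fell in KO3 against WT6 (median log2 0.23, against -0.019 over all genes), and 12 rose and 1 fell against WT0 PBS (0.24 against 0.0033). The gene that fell was Abat, a transaminase that also breaks down GABA, at 3.11 ± 0.30 CPM in KO3, 9.33 ± 0.451 CPM in WT6 and 16.9 ± 1.51 CPM in WT0 PBS (SD, n = 3 each). Pcca, a propionyl-CoA carboxylase subunit, stood at 32.2 ± 1.24 CPM in KO3 against 24.1 ± 0.595 CPM in WT6, and Mmut, the methylmalonyl-CoA mutase, at 37.6 ± 0.409 against 28.4 ± 0.401 CPM. Cell markers moved in the same comparisons. T cell markers took a summed 0.82% of counts in KO3, 0.609% in WT6 and 0.527% in WT0 PBS. One by one they were split in KO3 against WT6, with 7 called higher and 7 lower (median log2 -0.018). Trbc1, among them, stood at 1604 CPM in KO3 and 299 CPM in WT6. Against WT0 PBS, 10 T cell markers were higher in KO3 and 2 lower (median log2 0.29). All 13 erythroid markers were lower in KO3 than in WT0 PBS (median log2 -1.93). Of 14 B and plasma cell markers, 13 were lower in KO3 than in WT6. The part of all these markers in the list's rise was not tested. Of all genes, 27.7% and 34.1% rose in KO3 against WT6 and WT0 PBS, 32.2% and 34.5% in KO7, and 33% with ERG-245. In KO7 the list was divided, with 7 higher and 5 lower against WT6 (median -0.022 against -0.026) and 6 and 4 against WT0 PBS (-0.039 against -0.0017). Oxct1, which activates ketone bodies, was lower in KO7 than in WT6 (96.0 ± 1.13 against 128 ± 5 CPM) and Aldh6a1, the methylmalonate semialdehyde dehydrogenase, higher (14.4 ± 1.6 against 9.45 ± 0.662 CPM). With ERG-245, 10 rose and 3 fell (0.24 against -0.00053), among them Acat1 at 126 ± 2.66 CPM against 89.3 ± 2.01 CPM and Pccb at 51.9 ± 2.01 CPM against 36.5 ± 1.2 CPM in WT0 PBS. Acat1 was similarly above WT0 PBS without the inhibitor, at 124 ± 1.2 CPM in KO3, 127 ± 0.789 CPM in KO7 and 129 ± 5.05 CPM in WT6.

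The list drawn up for large neutral amino acid transport holds carriers of leucine, isoleucine and valine at the cell membrane. It also holds the lysosomal Slc38a9 and Slc66a1, which are not among those carriers. The list rose as a whole in KO7 against WT6. All 8 tested of 9 listed were higher (median log2 0.72, against -0.026 over all genes), as were all 13 erythroid markers, whose part in this was not tested. Of all genes, 32.2% were called higher there. Slc43a1, a facilitated carrier of branched-chain amino acids, stood at 243 ± 4.42 CPM in KO7 against 58.8 ± 3.06 CPM in WT6, and the related Slc43a2 at 174 ± 4.79 against 93.5 ± 2.26 CPM. This depended on the wild type used: against WT0 PBS, where Slc43a1 stood at 241 ± 5.14 CPM, 3 rose and 2 fell in KO7 (0.029 against -0.0017). In KO3, 2 rose and 3 fell against WT6 (-0.056 against -0.019), and 1 rose and 6 fell against WT0 PBS (-0.46 against 0.0033). Slc7a5, the exchanger that imports leucine, fell to 103 ± 2.16 CPM in KO3, against 157 ± 1.93 CPM in WT0 PBS, but wild-type WT6 stood as low, at 105 ± 2.95 CPM. With ERG-245, 1 rose and 2 fell (0.013 against -0.00053), with Slc7a5 at 184 ± 2.76 CPM against 157 ± 1.93 CPM. Of all genes, 69.4% passed in KO7 against WT0 PBS, 59.7% and 66.6% in KO3 against WT6 and WT0 PBS, and 65.8% with ERG-245.

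Enzymes that make or use glutamate and 2-oxoglutarate, the partners of transamination, moved both ways. Of 16, all tested, 8 rose and 4 fell in KO3 and 5 rose and 6 fell in KO7 against WT6. Their median log2 was 0.073 and 0.045, and 59.7% and 68.9% of all genes passed in these comparisons. Against WT0 PBS, 10 of the 16 rose and 4 fell in KO3, and 5 rose and 6 fell in KO7. With ERG-245, 9 rose and 5 fell. Their median log2 was 0.13, -0.066 and 0.097 there, and 66.6%, 69.4% and 65.8% of all genes passed. Glul, which makes glutamine from glutamate, was higher in KO7 than in WT6 (281 ± 7.1 against 135 ± 3.73 CPM) and lower in KO3 (108 ± 3.94 CPM). Psat1, the phosphoserine aminotransferase, which like Bcat1 pairs glutamate with 2-oxoglutarate, fell in KO7 to 105 ± 0.809 CPM. It stood at 233 ± 1.2 CPM in WT6 and 137 ± 5.23 CPM in WT0 PBS. In KO3 Psat1 stood between these wild types, at 199 ± 2.95 CPM. That was called higher than in WT0 PBS (log2 0.55, edgeR adjusted p = 7.29e-29) but lay below the mean of WT6. WT6 itself exceeded WT0 PBS (log2 0.77, edgeR adjusted p = 4.3e-39), so the direction in KO3 depended on the wild type used. Idh2, the mitochondrial isocitrate dehydrogenase, was higher in KO3 than in WT6 (123 ± 2.93 against 63.4 ± 0.571 CPM).

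The sister complexes that share Dld were followed with their kinases and phosphatases, 17 tested of 18. In KO3, 6 rose and 1 fell against WT6 and 7 rose and 5 fell against WT0 PBS (median log2 0.060 and 0.22). In KO7, 6 rose and 5 fell against WT6 and 4 rose and 8 fell against WT0 PBS (-0.024 and -0.21). Of all genes, 59.7% and 66.6% passed in these KO3 comparisons, 68.9% and 69.4% in those of KO7 and 65.8% with ERG-245. Pdha1, the E1 alpha subunit of pyruvate dehydrogenase and so the counterpart of Bckdha, stood at 268 ± 3.42 CPM in KO3 against 221 ± 2.37 CPM in WT6 and 188 ± 2.17 CPM in WT0 PBS. Ogdh, the E1 of the 2-oxoglutarate complex, fell in both knock-outs against WT0 PBS, to 207 ± 4.62 CPM in KO3 and 249.7 ± 6.43 CPM in KO7, against 288 ± 8.75 CPM, while WT6 stood at 201 ± 4.63 CPM. With ERG-245, 7 rose and 4 fell (0.086), with Pdk1, a kinase of pyruvate dehydrogenase, at 125 ± 1.69 CPM against 91.7 ± 1.52 CPM in WT0 PBS. Of the 8 tested cofactor genes of 9 listed, 4 rose and 1 fell in KO3 and 2 rose and 3 fell in KO7 against WT6. Against WT0 PBS, 4 rose and 2 fell in KO3 and 1 rose and 4 fell in KO7 (median log2 0.044 and -0.26). Slc25a42 stood at 10 ± 1.59 CPM in KO3 against 27.3 ± 0.69 CPM in WT0 PBS, but wild-type WT6 stood as low, at 9.66 ± 0.484 CPM. Lias, which makes the lipoate that Dbt carries, was 61.1 ± 1.35 CPM with ERG-245 against 41.2 ± 1.44 CPM with PBS, and 2 of the 8 rose and 2 fell in that comparison.

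The genes most like Bcat1 across the 5 groups were sought among 10992 genes averaging 5 CPM or more, by the root mean square difference of centred group log2 CPM. The nearest were Gm43305 (0.61), Fn1 (0.65), Tet1 (0.65), Cxadr (0.66) and Parm1 (0.67), and no gene followed Bcat1 closely. Tet1, a 2-oxoglutarate-dependent DNA demethylase, stood at 16.8 CPM in KO3, 4.59 in KO7, 35.4 in WT6, 14.6 in WT0 ERG-245 and 13.7 in WT0 PBS. Bcat2 had much closer neighbours in Rabepk (0.024), 9330133O14Rik (0.029), Maip1 (0.031), Mrpl2 (0.033) and Ndufv2 (0.033). Ndufv2, a subunit of respiratory complex I, had group means of 194 CPM in KO3, 178 in KO7, 164 in WT6, 213 in WT0 ERG-245 and 151 in WT0 PBS. Its order of groups is that of Bcat2, which its choice by likeness makes likely.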

How the data were processed

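RNA-seq counts of 15 mouse libraries were used as deposited. The authors counted read pairs with featureCounts 2.0.1, per the file headers, over RefSeq exons of GRCm38.p6, with strand setting 2 and a minimum overlap of 25 bases. Trim Galore, STAR, Subread, DESeq2 and mm10 appear in the submitters' processing notes. The deposited length column (another unit, bases of merged exons) served for RPKM. Of 39836 lines, 9 were broken and left out with 3 genes (Neb, Mycbp2 and Huwe1). Of the gene IDs, 39743 matched a symbol and 84 did not.

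The 15948 genes kept by filterByExpr were scaled with TMM and fitted with edgeR 4.0.16 (quasi-likelihood, all 15 libraries, 10 residual degrees of freedom, R 4.3.3, limma 3.58.1). The threshold was an adjusted p under 0.05 (Benjamini-Hochberg, over all genes tested). CPM are counts over TMM-scaled library sizes, as mean ± SD over 3 libraries. Fold changes are log2 values, of the group named first over the other. The leukemia-level fit summed counts per leukemia (17226 genes). Alternatives were RLE scaling, DESeq2 1.42.0, no filter, only the groups compared, a replicate block, markers of other cells left out, each library or leukemia left out, and longest GENCODE transcripts. The fit was tested on simulated data.

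The 9 genes and the gene lists were chosen with earlier results of these data known. All 9 are named. From each list up to 4 genes per comparison could be named, by smallest edgeR p among those that passed with a mean of at least 5 CPM. Likeness was computed on log2 CPM with a prior count of 2.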

Additional observations from a re-analysis of the deposited data

Results flagged for a closer look

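The knock-out leukemias KO3 and KO7 differed from each other for 8 of the 9 genes. In this contrast a shared wild type cancels, so it compares these leukemias and not effects of the knock-out, and the wild-type leukemias likewise differed for 7 of the 9. In log2, KO3 minus KO7, the differences were 1.734 for Bcat1, 0.2213 for Bcat2, 0.1219 for Bckdha, 0.3301 for Dbt, 0.1326 for Dld, 0.6137 for Bckdk, 0.3494 for Ppm1k and -0.4762 for Slc25a44, with edgeR adjusted p of 1.11e-24 to 0.0144. Of all genes, 70.7% passed in the same contrast, so differences of this kind are common between these leukemias. For Bckdk the called differences of KO3 and KO7 had opposite signs against either wild type, and for Slc25a44 against WT0 PBS.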

How the results depend on the processing

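Outside the fits that left out a library, 400 of 414 fold changes of the members kept their direction and side of the threshold, and 382 of 414 did so when a library or leukemia was left out. The largest effects (Bcat1 in each comparison, Bcat2 with ERG-245, Bckdha and Bckdk in the knock-outs against the wild types) kept their calls in each library-level alternative. With DESeq2, 1 member was lower with ERG-245 rather than 2 (1 to 2 with a library left out). In KO3 against KO7, 1 to 2 members were lower with a library left out. The leukemia-level fit called 0 genes, but DESeq2 called 46 (21 higher), the unfiltered fit 8 (3 higher), and fits without a leukemia 0 to 7 (0 to 4 higher), where the lone leukemia of a genotype is assumed to vary like the others. The causes were not tested.

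Signs turned only where log2 values were near 0 or the leukemia fit was used. With ERG-245, Dbt was -0.0073 unfiltered and -0.0037 to 0.041 with a library left out. In KO7, Bckdhb against WT6 was -0.086 to 0.21 and Dbt against WT0 PBS -0.0496 to 0.0171, 0.00295 without WT0 PBS 1. Without a leukemia, Dbt ranged over -0.057 to 0.285 and Bckdk over -0.299 to 0.327 (lowest without KO3), Ppm1k over -0.262 to 0.142 (0.101 without KO7, highest without WT6), and Slc25a44 over -0.109 to 0.355 (lowest without KO7).

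Libraries with the same replicate number did not deviate together (r of -0.125 to 0.077 over 30 pairs). Because the spread within groups may be technical, this cannot exclude a pairing. With a replicate block, 10397 genes passed with ERG-245, against 10488 without it, and the only call of a member that changed was Bckdhb in WT6 against WT0 PBS (log2 0.255, edgeR adjusted p = 0.0495, against 0.0556). The lowest counts per library were 26 to 47 for Bcat1 in KO7 and 85 to 188 for Bckdhb over all groups, which limits the precision of both. Lengths of longest transcripts moved 33 of 45 RPKM group means by more than the spread between libraries.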

Other observations

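Levels of a pair of genes near Bcat1 on chromosome 6 are given without a test. Lrmp, at 36 kb and known from lymphoid cells, stood at 286 CPM in KO3, 236 in KO7, 277 in WT6, 194 in WT0 ERG-245 and 265 in WT0 PBS. Etfrf1, at 135 kb, stood at 16.0 CPM in KO3, 14.4 in KO7, 13.5 in WT6, 18.3 in WT0 ERG-245 and 15.1 in WT0 PBS.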
